A study of Mus musculus with 4 samples.

Results

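The comparison described here sets mouse embryonic fibroblasts given SOX2, KLF4 and c-MYC together (SKM) against fibroblasts given an empty vector, gene by gene. Of the 25509 genes in the deposited table of this comparison, and 27597 in the series, 10195 reached 1 RPKM in at least 1 of both groups and were compared. RPKM counts reads per kilobase of a gene's span at a common library depth. The deposited floor of 0.001 was taken to mean no reads, and the log2 ratio was recomputed after adding 1 RPKM to both values. The cells came from the skin of embryos of the OGXICR strain (age D13.5 in the labels), the epidermis having been removed, and grew in medium with 10% serum. All groups carried a doxycycline-inducible lentivirus. It held no factor in the empty vector group, SKM in the second, SKM with OCT4 in the third (OSKM) and SKM with GATA3 in the fourth (G3SKM). Each group has 1 value per gene, which stands for 2 replicates combined, so no difference below can be set against a spread between replicates and no test was made. The time after infection is not stated in the labels used here.

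SOX2, KLF4 and MYC are transcription factors of the set used to turn fibroblasts into pluripotent cells. In that process fibroblasts are known to lose mesenchymal and contractile genes early and to take up epithelial ones, while MYC is known as an activator of ribosome and nucleotide synthesis. In skin, KLF4 is known for its part in forming the barrier of the epidermis, whose outer cells hold keratin filaments inside a crosslinked protein envelope.

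A gene was called higher or lower in SKM where the log2 ratio was at least 1 in size. By this rule 905 genes were higher, 8.88% of those compared, and 610 were lower, 5.98%. The median log2 ratio over all genes compared was 0.15, and the central 90% of genes lay between -1.07 and 1.23. The balance of the calls depended on this shift. Of all genes called, 59.7% were higher on the deposited scale, 41.9% after centring on the median (608 higher, 843 lower) and 39.8% with trimmed mean scaling (571 higher, 864 lower). A call at this rule of size is a description of these libraries. Near the rule stood 203 genes at log2 ratios of 1 to 1.1 and 279 at 0.9 to 1, and on the lower side 129 at -1.1 to -1 and 154 at -1 to -0.9. At the filter, 341 genes had 1.0 to 1.1 RPKM in their higher column and 351 had 0.9 to 1.0.

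**Figure D1:**
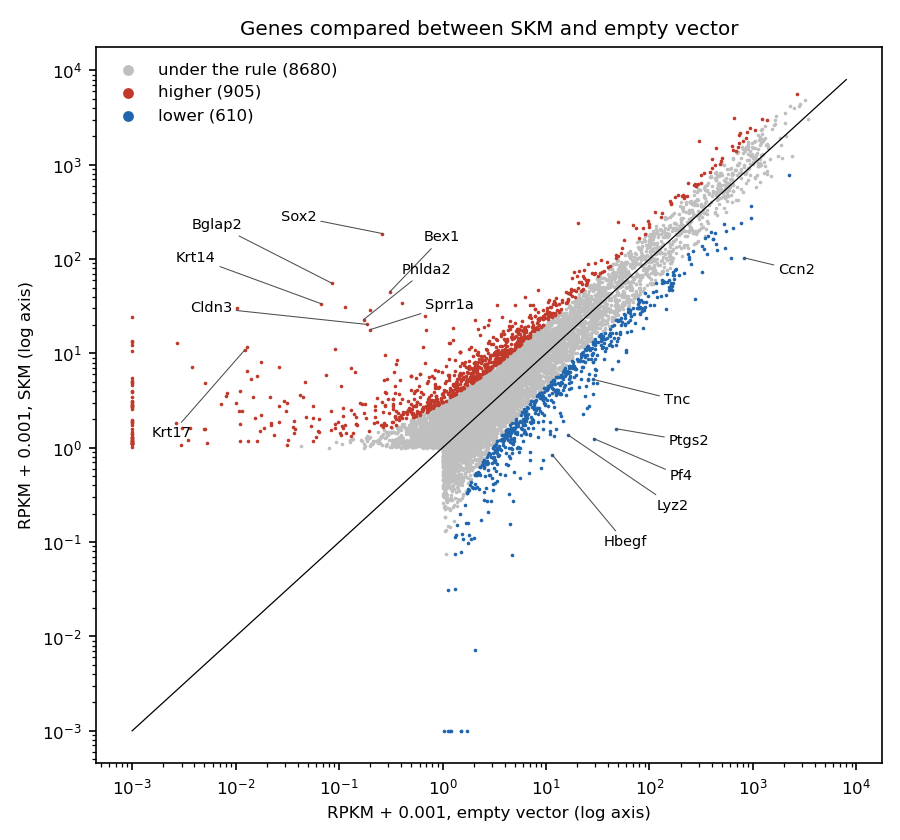
Deposited RPKM of the 10195 compared genes in SKM (vertical, log axis) and empty vector (horizontal, log axis), with 0.001 added for display; each point is a gene and the line marks equal values. Genes called higher (905) are red and genes called lower (610) blue, and the column of red points at the left edge holds genes without reads in empty vector, 51 of which were compared.

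The read depth recovered from the deposited values was 54.0 M reads for SKM and 111 M for empty vector (M, mega-reads), and 74.7 M for OSKM and 102 M for G3SKM. Ratios of RPKM are given as folds with 95% Clopper-Pearson intervals in brackets. These cover counting error only, since PCR copies of a molecule are counted as separate reads, and are approximate for genes whose recovered reads were not whole. The log2 ratio followed the GC content of the transcripts in this comparison (across 9455 genes, which are not independent replicates, Spearman's rho 0.496). Against the same empty vector library, rho was 0.0597 for OSKM and -0.00225 for G3SKM. Levels of SKM set beside OSKM and G3SKM below are deposited values, from which this trend was not removed. In the 20 GC bins of SKM against empty vector the median log2 ratio went from -0.44 at 38.9% GC to 0.60 at 62.1% GC, and genes called higher from 1.06% to 25.4%. For this reason gene groups are also given on a corrected scale, RPKM rescaled to exon length with the GC trend removed. On the corrected scale 14776 genes were compared, of which 1222 (8.27%) were higher and 833 (5.64%) lower, with a median log2 ratio of 0.14. Counts of gene lists on this scale are to be read beside these shares. Those on the deposited scale are to be read beside 8.88% higher and 5.98% lower. Of the 824 genes called higher on the deposited scale that have a GC value, 505 were also higher on the corrected scale, and of the 543 called lower 359 were also lower. With the GC trend removed on the deposited scale alone, 568 of 9455 genes (6.01%) were higher and 402 (4.25%) lower, and this is what GC removal means below where the corrected scale is not named.

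**Figure D2:**
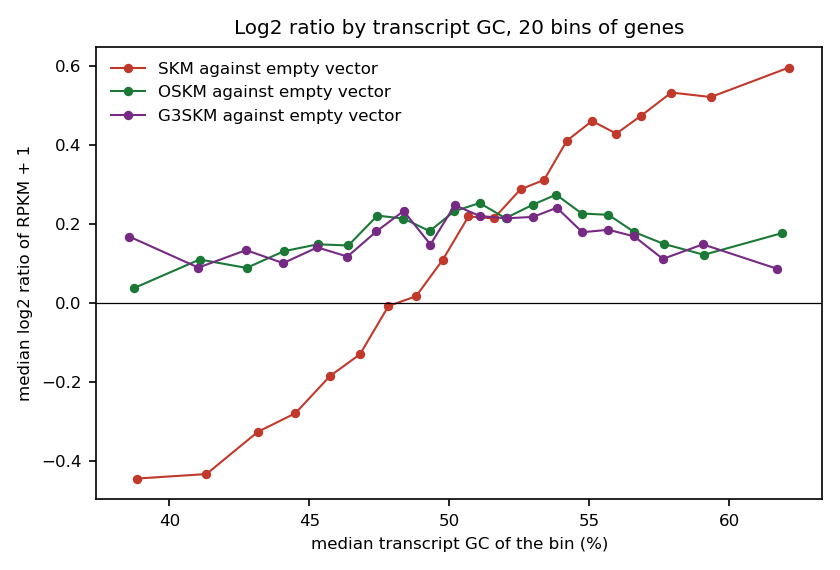
Median log2 ratio of RPKM + 1 (vertical) against the median transcript GC in percent (horizontal) in 20 bins of genes, for SKM (red), OSKM (green) and G3SKM (purple), each against the same empty vector library. The red points climb from -0.44 to 0.60 with GC, while the green and purple points stay between 0.038 and 0.27.

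Among the factors delivered, Sox2 stood at 187 RPKM with SKM, against 0.260 with empty vector, 110.5 with OSKM and 70.7 with G3SKM, and SKM was highest of the 4 libraries, 718-fold (561 to 951) above empty vector. Klf4 was at 19.3 RPKM with SKM, against 6.26 with empty vector, 13.9 with OSKM and 8.55 with G3SKM, 3.08-fold (2.96 to 3.21) higher in SKM than in empty vector. Myc did not pass the rule, with 11.9 RPKM with SKM, against 15.96 with empty vector, 10.5 with OSKM and 6.31 with G3SKM (log2 -0.39). Reads of a delivered and an endogenous copy cannot be told apart in values per gene.

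The fibroblast label was checked against 11 fibroblast markers, whose summed level on the scale of exon length (RPKM rescaled from gene span to exon length, the scale used to compare levels between genes) was 2378 in empty vector and 1768 in SKM. Markers of 2 other cell types moved. Of 17 macrophage markers 9 passed the filter and 8 were lower. Their summed level was 179 with empty vector, 18.4 with SKM, 9.46 with OSKM and 14.6 with G3SKM, and none was at 0. Of 13 keratinocyte markers 5 passed and 5 were higher, with a summed level of 8.65 in empty vector and 173 in SKM, and 3 were at 0 in empty vector. Of these 5 all but Sfn passed the filter through SKM alone, so they stand high by construction. The call of Sfn was lost with the GC trend removed (log2 0.88) and on the corrected scale (0.78), where 4 of 6 markers were higher. The other markers were under the filter, among them Trp63, Col17a1 and Krt5 at 0.000799, 0.00607 and 0.118 RPKM with SKM. No marker of endothelial cells, Schwann cells and melanocytes, erythroid cells or mast cells passed the filter. Fewer cells of a type and less RNA per cell cannot be told apart in bulk samples such as these. The Y-linked gene Ddx3y was at 0.832 RPKM with SKM, against 2.73 with empty vector, 1.97 with OSKM and 1.85 with G3SKM, a log2 ratio of -1.03 that became -0.44 with the GC trend removed, and Xist was at 3.76 RPKM with SKM, against 6.05 with empty vector, 4.57 with OSKM and 10.1 with G3SKM.

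Structural genes of stratified epithelium were among the large rises. Keratins, the intermediate filament proteins of epithelial cells, passed the filter in 11 of 23 listed cases, 9 of them higher and 0 lower, with a median log2 ratio of 2.56 against 0.15 over all genes. A gene can pass the filter through SKM alone, and such a gene stands high by construction, so the counts of rising groups describe these members and no more. In the same way a gene that passes through empty vector alone stands low by construction. The counts of falling groups, macrophage markers included, therefore also describe their members and no more. Krt14, a type I keratin found in basal cells of the epidermis, was at 33.8 RPKM with SKM, against 0.0656 with empty vector, 16.5 with OSKM and 22.8 with G3SKM, 515-fold (364 to 753) higher in SKM. Krt16, a keratin of stressed and fast-growing epidermis, was at 30.6 RPKM with SKM, against 0.00940 with empty vector, 13.8 with OSKM and 21.4 with G3SKM. Its 3253-fold (1089 to 15449) difference rests on few reads in empty vector, while all 3 libraries with factors were above 13 RPKM. Krt90 was at 12.96 RPKM with SKM, against 0.00170 with empty vector, 8.37 with OSKM and 8.12 with G3SKM, a ratio of 7629-fold (2111 to 63009.7) over empty vector, where 2 reads were recovered. Among keratins chosen after their values were seen, Krt17 rose 967-fold (443 to 2636) and Krt8, which simple epithelia use, rose 122-fold (96.9 to 153), from 0.0908 to 11.05 RPKM. The basal partner of Krt14, Krt5, was under the filter at 0.118 RPKM in SKM and 0.00464 in empty vector. Trp63, the regulator that defines basal keratinocytes, had 9 recovered reads in SKM and 8 in empty vector. Krt1 and Krt10, the keratin pair of differentiating epidermis, were at 0.238 and 0.527 RPKM in SKM. On exon length with the GC trend removed, 15 keratins were compared, of which 10 were higher and 1 lower, and the median was 2.07.

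Of the cornified envelope and barrier list, 17 of 26 genes passed the filter, 13 higher and 0 lower, with a median log2 ratio of 1.26 (1.76 on exon length with the GC trend removed, 15 of 21 higher). Sprr1a, a small proline-rich protein that transglutaminase joins into the envelope, was at 17.9 RPKM with SKM, against 0.200 with empty vector, 3.51 with OSKM and 6.78 with G3SKM. SKM was the highest of the 4 libraries for Sprr1a, 89.8-fold (66.5 to 125) over empty vector and with both other factor libraries between. Sbsn, suprabasin, was at 25.05 RPKM with SKM, against 0.683 with empty vector, 6.26 with OSKM and 15.5 with G3SKM, 36.7-fold (32.9 to 40.9) higher in SKM. Cnfn, cornifelin, went from no reads to 10.7 RPKM, at least 831-fold higher when 3 reads are taken as the floor of the empty vector library. Among members chosen after their values were seen, the crosslinking enzyme gene Tgm1 rose 14.2-fold (11.95 to 16.9) and the loricrin gene Lor 7.76-fold (5.84 to 10.4), both to levels under 2 RPKM. With the GC trend removed neither passed the rule (0.81 and 0.62 on the log2 scale), and on the corrected scale Tgm1 did (1.92) and Lor did not (0.82). The list's count fell from 13 to 9 of 17 higher with the GC trend removed. Ivl, the gene of involucrin, was under the filter at 0.0858 RPKM in SKM and 0.116 in empty vector. The promoter of Sprr1a is shown because genes of this list held AP-1 motifs more often than promoters in general. It is given as the 250 bases before the start in RefSeq, build GRCm38.p6, written 5′ to 3′ on the strand of the gene, with AP-1 motifs (TGANTCA) in capitals.
Sprr1a (chr3:92485882-92486131, minus strand): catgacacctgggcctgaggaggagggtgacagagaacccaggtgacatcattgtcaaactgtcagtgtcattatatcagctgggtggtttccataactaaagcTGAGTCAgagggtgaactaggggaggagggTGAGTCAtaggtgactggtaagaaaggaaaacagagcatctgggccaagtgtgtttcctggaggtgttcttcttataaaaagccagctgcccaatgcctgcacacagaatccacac
The copies start 146 and 116 bases before the gene's start. AP-1 motifs were found in 7 of 20 promoters of the barrier list and in 8.97% of all 27025 promoters in the table.

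Small proteins of the Ly6/uPAR fold, several of them secreted or membrane-bound on keratinocytes, passed the filter in 9 of 21 cases, 5 higher and 1 lower (corrected scale: 6 higher and 1 lower of 12, median 1.16). Slurp1, a secreted member, went from no reads with empty vector to 24.6 RPKM with SKM, 9.79 with OSKM and 16.9 with G3SKM, at least 3391-fold higher in SKM against that floor. Lypd2 rose 44.97-fold (31.8 to 66.0) to 6.43 RPKM, and Psca rose at least 451-fold from no reads to 5.46 RPKM. The member that fell was Plaur, the receptor of urokinase, described with its protease below. Of 42 genes for epithelial junctions and adhesion only 6 passed the filter, 3 of them higher. Cldn3, a tight junction claudin, was at 20.3 RPKM with SKM, against 0.186 with empty vector, 4.72 with OSKM and 5.98 with G3SKM, 109-fold (74.2 to 168) higher, and SKM was more than 3 times above both other factor libraries. Its transcript GC was 62.7%, and its log2 ratio over empty vector went from 4.17 to 3.60 on the corrected scale. The part of GC in the excess of SKM over OSKM and G3SKM was not tested. Cldn4 rose 14.6-fold (9.92 to 22.5), a call that was lost on the corrected scale (log2 0.98). Long introns keep several genes of this list under the filter on the deposited scale. On exon length with the GC trend removed 21 were compared, of which 11 were higher and 1 lower. There Cdh1, the gene of E-cadherin, went from 0.0118 to 4.15 RPKM of exon length, and Dsp, the gene of desmoplakin, from 0.0820 to 4.57; both were chosen after their values were seen. Connexins, the subunits of gap junctions, did not move one way (corrected scale: 3 higher and 1 lower of 7, median 0.54). Gjb5 was at 2.60 RPKM with SKM, against 0.632 with empty vector, 1.33 with OSKM and 4.30 with G3SKM, 4.11-fold (3.51 to 4.83) higher in SKM than in empty vector (log2 0.97 with the GC trend removed and 1.21 on the corrected scale). Gjb2 was lower, at 0.525 RPKM with SKM, against 3.56 with empty vector, 0.513 with OSKM and 0.699 with G3SKM, 6.78-fold (5.81 to 7.96).

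Over all genes of the table, those described above included, 72 were below 0.1 RPKM of exon length in empty vector and at 3 or more in SKM, while 2 showed the reverse, thresholds that were chosen after the data were seen. Keratins and envelope genes stood beside acetyltransferase-like genes in this set. Nat8f3 went from no reads with empty vector to 3.95 RPKM with SKM, 3.47 with OSKM and 6.77 with G3SKM. Its neighbour in name, Nat8f6, also without reads there, was at 4.98, 4.64 and 6.45 RPKM in the same order. Reads shared between these near-identical genes were not examined. Outside this set, Fetub, a liver-made protease inhibitor of the fetuin family, was at 7.14 RPKM with SKM, against 0.0252 with empty vector, 5.06 with OSKM and 6.19 with G3SKM. Its level was 283-fold (220.2 to 372) higher in SKM than in empty vector.

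Of 12 genes of the BEX and TCEAL list 8 passed the filter, 4 higher and 2 lower (corrected scale: 4 higher and 0 lower of 11, median 0.07). Bex1 and Bex4, small X-linked genes, had the largest log2 ratios of the list. Bex1 was at 45.2 RPKM with SKM, against 0.309 with empty vector, 38.8 with OSKM and 33.8 with G3SKM, 146-fold (111 to 195) higher, and Bex4 at 29.1 RPKM with SKM, against 0.199 with empty vector, 27.997 with OSKM and 32.0 with G3SKM, 146-fold (103 to 214). The 3 factor libraries lay close together for both genes, and empty vector lay far below. Bex2 rose less, 4.63-fold (4.17 to 5.15), to 12.9 RPKM. Their neighbours in the list, Tceal8 (2.67-fold (2.54 to 2.80) lower, from 29.9 to 11.2 RPKM) and Tceal9 (2.27-fold (2.17 to 2.37) lower), fell by the rule, but neither passed it once the GC trend was removed (log2 -0.87 and -0.57). The promoters of Bex1 and Bex4 are shown because these genes moved by the same fold. The longest run of bases that both share is in capitals.
Bex1 (chrX:136215514-136215763, minus strand): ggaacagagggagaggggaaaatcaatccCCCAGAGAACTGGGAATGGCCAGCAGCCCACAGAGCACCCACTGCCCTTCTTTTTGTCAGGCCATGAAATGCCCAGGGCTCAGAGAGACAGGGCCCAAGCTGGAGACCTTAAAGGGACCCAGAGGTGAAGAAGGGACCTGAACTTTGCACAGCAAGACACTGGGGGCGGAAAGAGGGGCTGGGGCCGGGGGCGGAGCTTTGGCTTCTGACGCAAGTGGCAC
Bex4 (chrX:136138746-136138995, plus strand): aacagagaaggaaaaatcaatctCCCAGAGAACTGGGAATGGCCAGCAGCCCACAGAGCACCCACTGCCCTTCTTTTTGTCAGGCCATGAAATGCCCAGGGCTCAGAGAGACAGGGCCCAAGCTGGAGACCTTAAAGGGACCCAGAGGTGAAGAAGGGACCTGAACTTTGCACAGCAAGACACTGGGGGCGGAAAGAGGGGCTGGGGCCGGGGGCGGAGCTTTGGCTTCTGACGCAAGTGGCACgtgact
This run is 221 bases long, and 241 of 256 aligned positions (94.1%) were identical between the windows. Reads that fit both genes were not examined. The osteocalcin genes rose as a cluster of near-identical copies. Bglap2 was at 55.6 RPKM with SKM, against 0.0841 with empty vector, 22.6 with OSKM and 28.5 with G3SKM, 661-fold (348 to 1447) higher, Bglap rose 279.7-fold (159.7 to 542) and Bglap3 379-fold (184 to 945), and how reads were split between the copies was not examined. Spp1, another bone matrix protein gene, was lower, at 16.8 RPKM with SKM, against 51.4 with empty vector, 18.6 with OSKM and 16.9 with G3SKM.

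Phlda2, an imprinted gene that limits placental growth, was at 22.8 RPKM with SKM, against 0.172 with empty vector, 11.6 with OSKM and 13.6 with G3SKM, 133-fold (92.1 to 194) higher in SKM and highest there. Of 18 imprinted genes past the filter 4 were higher and 1 lower (corrected scale: 4 higher and 2 lower of 22, median -0.10). Of all genes compared 8.88% were higher and 5.98% lower, so the share of imprinted genes called lower was close to that of all genes. Nnat rose 4.39-fold (4.07 to 4.73) and Peg10 2.78-fold (2.66 to 2.91), while Igf2, the fetal growth factor, fell 2.996-fold (2.96 to 3.04), from 81.2 to 27.1 RPKM. Of SOX genes other than Sox2, Sox3 went from no reads to 13.2 RPKM, and whether reads of the delivered Sox2 were counted there was not examined. Sox21 was at 3.503 RPKM with SKM, against 0.00711 with empty vector, 2.81 with OSKM and 2.18 with G3SKM, 493-fold (168 to 2396) higher. Of 33 neural and ectoderm regulators 9 passed the filter, 4 higher and 1 lower (corrected scale: 3 higher and 4 lower of 13, median 0.30). Stmn2, a microtubule regulator of neurons, rose 14.1-fold (13.3 to 14.8) to 3.89 RPKM. Nes, the intermediate filament nestin, fell 3.32-fold (3.23 to 3.41). Pluripotency genes were low, with 2 of 30 past the filter and 0 called, and Nanog was under it at 0.0906 RPKM with SKM, against 0.0340 with empty vector, 0.137 with OSKM and 0.131 with G3SKM.

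Genes of the contractile apparatus of fibroblasts fell together. In 21 of 26 cases genes of the smooth muscle and contractile list passed the filter, 14 of them lower and 0 higher, with a median log2 ratio of -1.37 against 0.15 over all genes. With exon length and the GC trend removed 18 of 25 were lower and the median was -1.56. Tpm1, a tropomyosin that lies along actin filaments, was at 66.2 RPKM with empty vector, against 17.1 with SKM, 16.6 with OSKM and 18.2 with G3SKM, 3.87-fold (3.82 to 3.92) lower in SKM. Tpm4 was at 60.4 RPKM with empty vector, against 16.7 with SKM, 22.4 with OSKM and 21.4 with G3SKM, 3.61-fold (3.55 to 3.67) lower. Tagln, the actin-binding protein SM22, was at 362 RPKM with empty vector, against 113 with SKM, 81.7 with OSKM and 119.5 with G3SKM, 3.21-fold (3.18 to 3.24) lower. For these 3 genes the libraries with factors lay together, from 16.6 to 18.2 RPKM in the case of Tpm1, and empty vector stood above all. Acta2, the smooth muscle actin that defines myofibroblasts, and Myl9, a myosin light chain, also fell, 2.84-fold (2.82 to 2.87) and 2.96-fold (2.90 to 3.02). The falls reached vinculin (Vcl, 2.95-fold (2.90 to 3.01)), which ties actin to adhesions. Srf, the factor that drives many of these genes, was at 14.9 RPKM with empty vector, against 9.40 with SKM, 5.67 with OSKM and 5.397 with G3SKM and did not pass the rule on the deposited scale (log2 -0.62), but was called lower with the GC trend removed (log2 -1.07) and on the corrected scale (-1.21). Serum response factor is known to bind the CArG box. Acta2, Myl9, Vcl and Srf were chosen after their values were seen. The promoters of Myl9 and Vcl are shown because each holds this box, in capitals.
Myl9 (chr2:156775214-156775463, plus strand): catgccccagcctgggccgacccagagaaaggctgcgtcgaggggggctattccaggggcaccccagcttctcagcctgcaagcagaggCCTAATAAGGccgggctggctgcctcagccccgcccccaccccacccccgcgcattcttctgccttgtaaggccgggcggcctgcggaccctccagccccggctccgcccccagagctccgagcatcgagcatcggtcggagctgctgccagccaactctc
Vcl (chr14:20929148-20929397, plus strand): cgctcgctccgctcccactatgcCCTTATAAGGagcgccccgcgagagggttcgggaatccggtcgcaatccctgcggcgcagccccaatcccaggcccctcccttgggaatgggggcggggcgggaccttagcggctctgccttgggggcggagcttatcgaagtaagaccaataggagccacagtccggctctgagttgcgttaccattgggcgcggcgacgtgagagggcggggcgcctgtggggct
The box starts 161 bases before the start of Myl9 and 227 before that of Vcl. It was found in 4 of 22 contractile promoters, in 9.17% of 240 promoters of genes called lower, in 1.67% of 479 promoters of genes called higher, in 1.81% of 5705 promoters of genes compared and in 1.81% of all promoters in the table. This motif was added after the data were seen.

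Genes that YAP and TEAD factors activate when cells spread and pull on their matrix passed the filter in 16 of 23 cases, 6 lower and 0 higher, with a median of -0.68 (-0.94 with exon length and GC, 10 of 23 lower). Ccn2, the matricellular protein CTGF, was at 828 RPKM with empty vector, against 103 with SKM, 90.2 with OSKM and 101 with G3SKM, 8.03-fold (7.91 to 8.15) lower. Ankrd1, an ankyrin-repeat protein of stretched cells, was at 25.8 RPKM with empty vector, against 2.78 with SKM, 2.37 with OSKM and 3.51 with G3SKM, 9.28-fold (8.76 to 9.83) lower. Ccn1, the relative of Ccn2 also called CYR61, was at 319 RPKM with empty vector, against 73.4 with SKM, 56.8 with OSKM and 64.1 with G3SKM, 4.35-fold (4.27 to 4.43) lower. The 3 factor libraries differed little from each other in these genes, and empty vector was the highest each time. Other members were not called, among them Igfbp3 (log2 0.45), chosen after its value was seen. TEAD motifs (CATTCC, either strand) are in capitals in the promoters of Ankrd1 and Ccn1.
Ankrd1 (chr19:36119845-36120094, minus strand): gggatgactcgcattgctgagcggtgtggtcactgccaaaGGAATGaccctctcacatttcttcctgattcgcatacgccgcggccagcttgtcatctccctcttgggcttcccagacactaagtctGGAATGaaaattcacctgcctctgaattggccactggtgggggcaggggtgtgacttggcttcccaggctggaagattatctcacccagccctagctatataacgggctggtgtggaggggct
Ccn1 (chr3:145649986-145650235, minus strand): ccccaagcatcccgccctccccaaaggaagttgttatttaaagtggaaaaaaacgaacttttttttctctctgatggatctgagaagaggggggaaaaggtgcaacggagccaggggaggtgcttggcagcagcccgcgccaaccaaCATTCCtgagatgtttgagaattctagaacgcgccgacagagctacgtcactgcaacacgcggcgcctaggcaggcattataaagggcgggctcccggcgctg
TEAD motifs were found in 8 of 16 promoters of this list and 9 of 22 of the contractile list, against 13.9% of all genes compared and 16.6% of all promoters. Genes called lower held them in 20.8% of cases and genes called higher in 12.3%.

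Immediate early genes, which serum and growth factors switch on within minutes and many of which encode AP-1 and EGR factors, were lower in part. Of 25 on the list 23 passed the filter, 13 lower and 0 higher, with a median of -1.03. With exon length and the GC trend removed 18 of 24 were lower and the median was -1.48. Klf6 was at 28.5 RPKM with empty vector, against 4.91 with SKM, 6.83 with OSKM and 6.76 with G3SKM, 5.80-fold (5.56 to 6.05) lower. Egr3 was at 7.01 RPKM with empty vector, against 0.907 with SKM, 0.345 with OSKM and 0.661 with G3SKM, 7.72-fold (6.83 to 8.79) lower, and Egr2 at 4.94 RPKM with empty vector, against 0.557 with SKM, 0.257 with OSKM and 0.411 with G3SKM, 8.88-fold (7.70 to 10.3) lower. Of the libraries with factors SKM was the highest for Egr2 and Egr3 and the lowest for Klf6. Among members picked after seeing their values, Fos did not pass the rule (log2 -0.66), nor did Jun on the deposited scale (log2 -0.82, against -1.14 and -1.17 after GC removal and on the corrected scale), while Junb just passed (log2 -1.04). The C/EBP factors, 6 of 7 past the filter, gave no call in either direction.

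In the EGF family 4 of 16 genes passed the filter and 3 were lower (corrected scale: 0 higher and 3 lower of 8, median -0.55). Hbegf, a heparin-binding ligand of the EGF receptor, was at 11.5 RPKM with empty vector, against 0.847 with SKM, 1.001 with OSKM and 1.21 with G3SKM, 13.52-fold (12.4 to 14.8) lower. Ereg, the ligand epiregulin, was at 5.58 RPKM with empty vector, against 0.472 with SKM, 0.732 with OSKM and 0.982 with G3SKM, 11.8-fold (10.8 to 12.95) lower. The feedback inhibitor Errfi1 fell 4.06-fold (3.92 to 4.21). Of 11 genes of the IGF axis past the filter 2 were lower and 1 higher, with a median of 0.26 (corrected scale: 0 higher and 5 lower of 15, median 0.19). Igfbp5, a binding protein that restrains IGF, was at 8.88 RPKM with empty vector, against 0.611 with SKM, 1.33 with OSKM and 0.655 with G3SKM, 14.5-fold (13.4 to 15.8) lower, while Igfbp6 rose 2.44-fold (2.32 to 2.57). The rise of Igfbp6 did not pass the rule with the GC trend removed (log2 0.67, and 0.68 on the corrected scale).

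Of 48 genes of TGF-beta and BMP signalling 23 passed the filter, 9 lower and 0 higher, with a median of -0.94 (-0.85 with exon length and GC). Inhba, the subunit of activin A, was at 8.36 RPKM with empty vector, against 1.31 with SKM, 1.099 with OSKM and 1.26 with G3SKM, 6.404-fold (6.06 to 6.77) lower. Id1, a BMP target that blocks basic helix-loop-helix factors, was at 62.6 RPKM with empty vector, against 21.6 with SKM, 15.1 with OSKM and 14.9 with G3SKM, 2.89-fold (2.73 to 3.07) lower. Fstl1, a secreted follistatin-like protein, was at 27.9 RPKM with empty vector, against 9.63 with SKM, 15.8 with OSKM and 10.6 with G3SKM, 2.90-fold (2.86 to 2.93) lower and with OSKM nearest to empty vector. Of 15 WNT pathway genes past the filter 3 were higher and 2 lower (corrected scale: 3 higher and 7 lower of 28, median -0.13). Ccn4, a matricellular WNT target, fell 8.91-fold (8.54 to 9.29) and the ligand Wnt5a 5.24-fold (4.95 to 5.56), while the receptors Fzd10 and Fzd9 rose from under 0.2 to 1.69 and 1.80 RPKM. Neither receptor passed the rule on the corrected scale (log2 0.95 and 0.72), nor did Fzd9 with the GC trend removed (0.84). The median of the WNT list changed sign between settings, so no direction is given for it. In the Notch pathway 2 of 7 genes were higher and 2 lower (corrected scale: 4 higher and 3 lower of 14, median -0.19). The glycosyltransferase gene Rfng rose 4.52-fold (4.25 to 4.81), the target Hes1 fell 4.26-fold (3.93 to 4.62) and the ligand Jag1 4.02-fold (3.78 to 4.27) (Jag1 log2 -0.99 with the GC trend removed and -1.68 on the corrected scale). Crabp2, which carries retinoic acid inside cells, was 2.98-fold (2.74 to 3.25) higher. Of 8 FGF pathway genes past the filter 1 was called, the feedback inhibitor Spry2, 2.48-fold (2.32 to 2.67) lower (log2 -0.79 with the GC trend removed and -0.98 on the corrected scale, so the call was lost on both). No Hedgehog gene was called among 2 past the filter, and none of 12 genes of axon guidance. On the corrected scale axon guidance had 1 higher and 9 lower of 37 (median -0.31), against 8.27% higher and 5.64% lower of all genes. The Hedgehog list had 1 higher and 0 lower of 7 on that scale, and the FGF list 0 higher and 3 lower of 16.

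Ptgs2, the inducible cyclooxygenase that makes prostaglandin precursors, had the largest log2 fall of any protein-coding gene at 5 RPKM or more on the deposited scale. It was at 47.4 RPKM with empty vector, against 1.59 with SKM, 3.61 with OSKM and 4.02 with G3SKM, 29.8-fold (27.6 to 32.1) lower in SKM than in empty vector and lowest in SKM of all 4 libraries. With the GC trend removed Pf4, described below, fell further than Ptgs2 (log2 -3.70 against -3.64, and -3.98 against -3.94 on the corrected scale). The other 5 genes of prostaglandin synthesis and response past the filter were not called (corrected scale, whole list: 1 higher and 2 lower of 13). Chemokines and cytokines passed the filter in 12 of 28 cases, 7 lower and 1 higher, with a median of -1.14. Removal of the GC trend on exon length left 7 of 15 lower and a median of -0.70. Cxcl12, the chemokine that holds CXCR4-bearing cells in place, was at 11.8 RPKM with empty vector, against 2.68 with SKM, 1.51 with OSKM and 3.08 with G3SKM, 4.41-fold (4.21 to 4.63) lower. Ccl9 was at 4.76 RPKM with empty vector, against 0.272 with SKM, 0.152 with OSKM and 0.346 with G3SKM, 17.5-fold (14.1 to 22.03) lower. Lif, a cytokine that keeps mouse embryonic stem cells undifferentiated, was at 5.43 RPKM with empty vector, against 0.901 with SKM, 0.634 with OSKM and 1.098 with G3SKM, 6.03-fold (5.59 to 6.51) lower. Mif, the exception, rose 2.27-fold (2.23 to 2.31) and did not pass the rule with the GC trend removed (log2 0.72) or on the corrected scale (0.61). The promoter of Lif is shown with its AP-1 motif in capitals.
Lif (chr11:4257318-4257567, plus strand): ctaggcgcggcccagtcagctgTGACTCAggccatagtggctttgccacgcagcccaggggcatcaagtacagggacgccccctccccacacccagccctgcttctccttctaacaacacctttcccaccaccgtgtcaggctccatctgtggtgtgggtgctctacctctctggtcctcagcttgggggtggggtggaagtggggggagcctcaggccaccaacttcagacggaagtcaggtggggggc
AP-1 motifs were found in 14.6% of promoters of genes called lower, 6.68% of those called higher and 5.73% of all genes compared. The immediate early genes themselves held 0 in 20 promoters. These shares count matches on both strands from 250 bases before to 50 bases after the start, and a match is a description of the letters, not of a bound site. Median GC of the promoters was 60.0% for genes called higher, 60.3% for genes called lower and 61.0% for all compared. Other motifs were closer between the groups. The cyclic AMP response element (CRE, TGACGTCA) was found in 1.88% of genes called higher, 3.33% lower and 3.54% compared (2.03% of all promoters). The SOX motif ATTGTT was found in 7.10%, 9.17% and 6.56% in the same order (12.2% of all promoters), and the KLF motif CACCC in 66.4%, 63.7% and 66.2% (59.8%). The GC box GGGCGG was found in 63.0%, 67.9% and 70.1% (38.2%), and the C/EBP motif TTGCGCAA in 0, 1 and 17 promoters.

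**Figure D3:**
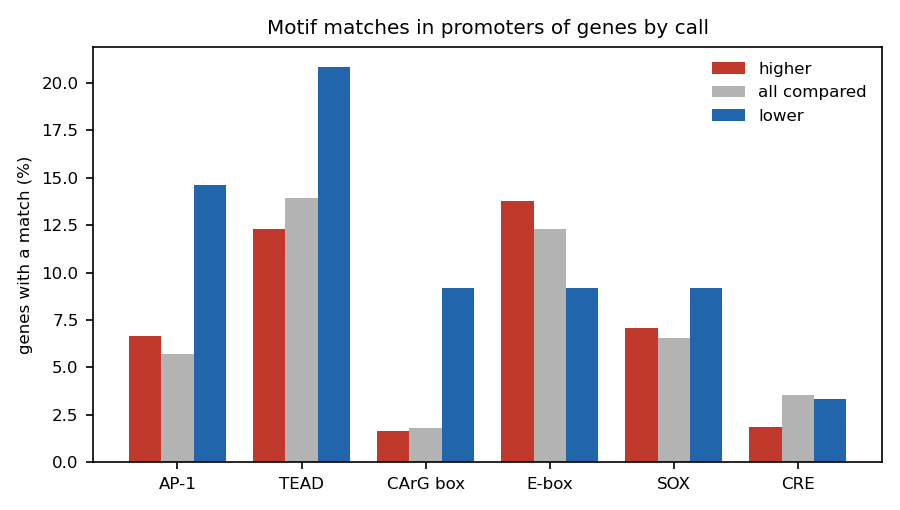
Share of genes in percent (vertical) whose promoter, 250 bases before to 50 after the start, holds each motif on either strand, for 479 genes called higher (red), all 5705 compared (grey) and 240 called lower (blue). Blue stands above grey for AP-1 (14.6% against 5.73%), TEAD (20.8% against 13.9%) and the CArG box (9.17% against 1.81%), and red is slightly above grey for the E-box (13.8% against 12.3%).

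Pf4 and Lyz2, genes of blood and myeloid cells, were the second and the fourth of the falls on the deposited scale. Pf4 was at 28.9 RPKM with empty vector, against 1.25 with SKM, 0.368 with OSKM and 0.708 with G3SKM, 23.1-fold (18.1 to 30.2) lower, and Lyz2, lysozyme of macrophages and neutrophils, at 16.4 RPKM with empty vector, against 1.37 with SKM, 0.276 with OSKM and 1.096 with G3SKM, 11.99-fold (10.8 to 13.3) lower. C1qa, a subunit of the complement component C1q that macrophages make, was at 4.48 RPKM with empty vector, against 0.154 with SKM, 0.0974 with OSKM and 0.113 with G3SKM, 29.1-fold (19.5 to 45.6) lower. All 3 factor libraries were low in these genes. Falls of the chemokines above moved with these macrophage markers, whose part in those falls was not tested. Ccl12, a monocyte chemokine, was highest in empty vector too, at 4.70 RPKM with empty vector, against 0.0714 with SKM, 0.0172 with OSKM and 0.0760 with G3SKM, 65.9-fold (30.1 to 180.1) lower. Other large falls were those of Tmsb4x, a protein that holds actin monomers (613 RPKM with empty vector, against 103 with SKM, 240.4 with OSKM and 283 with G3SKM, 5.94-fold (5.83 to 6.05) lower), of the serotonin receptor gene Htr1b (7.75-fold (7.29 to 8.24) lower) and of Fibin (6.89-fold (6.25 to 7.62) lower).

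**Figure D4:**
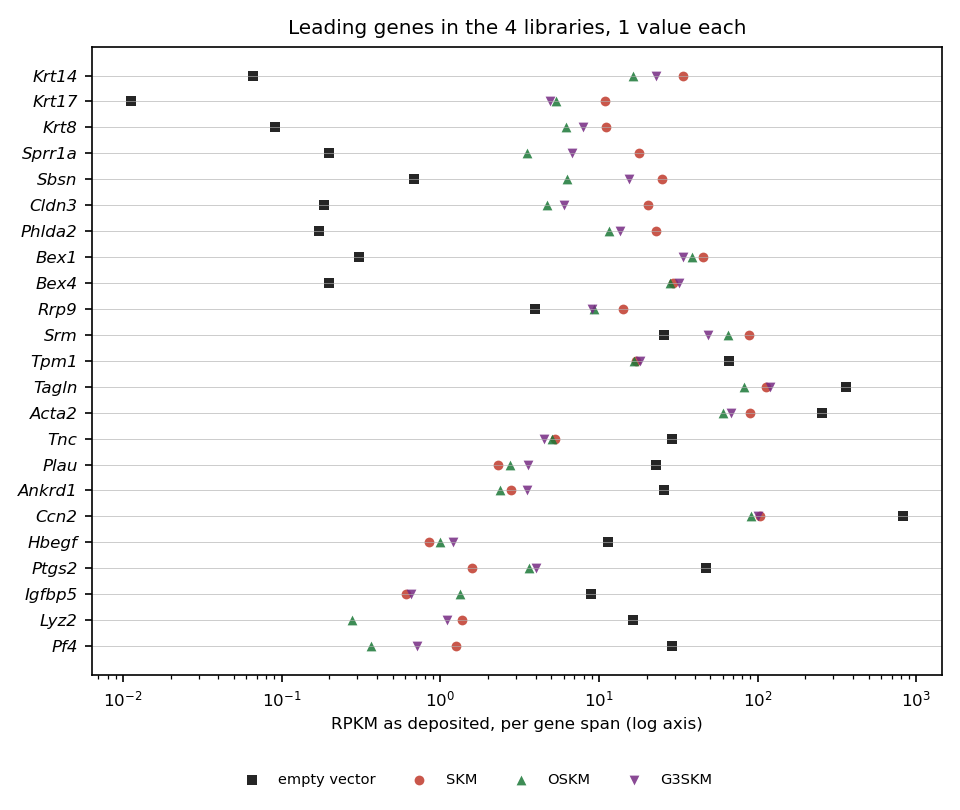
Deposited RPKM (horizontal, log axis, per gene span) of 23 leading genes in empty vector (black squares), SKM (red circles), OSKM (green triangles pointing up) and G3SKM (purple triangles pointing down), 1 value for each library with no error bar. In the epithelial, BEX, ribosome and spermidine genes at the top the black squares lie lowest, and from Tpm1 down they lie highest.

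Proteolysis at the cell surface changed at several steps. Plau, urokinase, which cuts plasminogen to plasmin, was at 23.0 RPKM with empty vector, against 2.30 with SKM, 2.73 with OSKM and 3.56 with G3SKM, 9.97-fold (9.30 to 10.7) lower. Plaur, the receptor of urokinase, was at 5.68 RPKM with empty vector, against 1.35 with SKM, 0.946 with OSKM and 1.18 with G3SKM, 4.21-fold (3.94 to 4.50) lower. Protease and receptor were both highest in empty vector. Of 16 genes of the plasminogen system and matrix metalloproteases past the filter 4 were lower and 0 higher, with a median of -0.69 (corrected scale: 0 higher and 6 lower of 23, median -0.73).

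Matrix genes fell less evenly. Of 17 collagens past the filter only Col12a1 was called, lower by 2.40-fold (2.37 to 2.44) (log2 -0.87 with the GC trend removed and -1.14 on the corrected scale), and the median was -0.45. Removal of the GC trend moved this list further, to -0.84 on the deposited scale and -0.93 on exon length, where 10 of 22 were lower. Col1a1, the main chain of type I collagen, was at 332 RPKM with empty vector, against 352 with SKM, 143 with OSKM and 166 with G3SKM, so SKM was within 0.09 of empty vector on the log2 scale while both other factor libraries were lower. Its log2 ratio in SKM became -0.29 with the GC trend removed and -0.39 on the corrected scale. Of 35 other matrix and crosslinking genes 9 were lower and 1 higher (corrected scale: 2 higher and 14 lower of 44, median -0.61). Tnc, tenascin C, was at 28.8 RPKM with empty vector, against 5.31 with SKM, 5.06 with OSKM and 4.48 with G3SKM, 5.43-fold (5.36 to 5.50) lower. Has2, which makes hyaluronan, was at 4.37 RPKM with empty vector, against 0.325 with SKM, 0.524 with OSKM and 0.807 with G3SKM, 13.4-fold (12.3 to 14.7) lower. Thbs1, thrombospondin 1, was at 453 RPKM with empty vector, against 124 with SKM, 86.3 with OSKM and 96.8 with G3SKM, 3.65-fold (3.62 to 3.67) lower. The member that rose was Prelp, 3.47-fold (3.30 to 3.64). Of 10 integrins and laminins past the filter 3 were lower and 1 higher (corrected scale: 2 higher and 6 lower of 22, median -0.40). Itgb1, the common beta chain of most collagen and fibronectin receptors, was at 30.4 RPKM with empty vector, against 6.63 with SKM, 12.8 with OSKM and 9.85 with G3SKM, 4.58-fold (4.51 to 4.65) lower. Itga5, its partner in the fibronectin receptor, fell 3.30-fold (3.25 to 3.36). Itgb4, the beta chain of hemidesmosomes in epithelium, was at 1.94 RPKM with SKM, against 0.0358 with empty vector, 1.77 with OSKM and 1.27 with G3SKM, 54.1-fold (45.5 to 64.8) higher.

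Of 17 mesenchymal regulators and markers past the filter 6 were lower and 0 higher (median -0.81), against 0 higher and 11 lower of 26, median -0.76 on the corrected scale. Snai2, a repressor of E-cadherin, was at 9.36 RPKM with empty vector, against 1.92 with SKM, 3.42 with OSKM and 2.48 with G3SKM, 4.88-fold (4.38 to 5.45) lower. Fn1, fibronectin, was at 58.1 RPKM with empty vector, against 20.3 with SKM, 14.7 with OSKM and 12.4 with G3SKM, 2.86-fold (2.84 to 2.88) lower. Foxs1 fell 2.77-fold (2.57 to 2.97). Twist1, another regulator of the list, chosen after its value was seen, was at 14.5 RPKM with empty vector, against 17.4 with SKM, 12.9 with OSKM and 10.004 with G3SKM and was not called. S100a6, a calcium-binding protein, was at 968 RPKM with empty vector, against 275 with SKM, 344 with OSKM and 407 with G3SKM, 3.51-fold (3.495 to 3.53) lower, while S100a14 rose from 0.00910 to 2.99 RPKM.

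**Figure D5:**
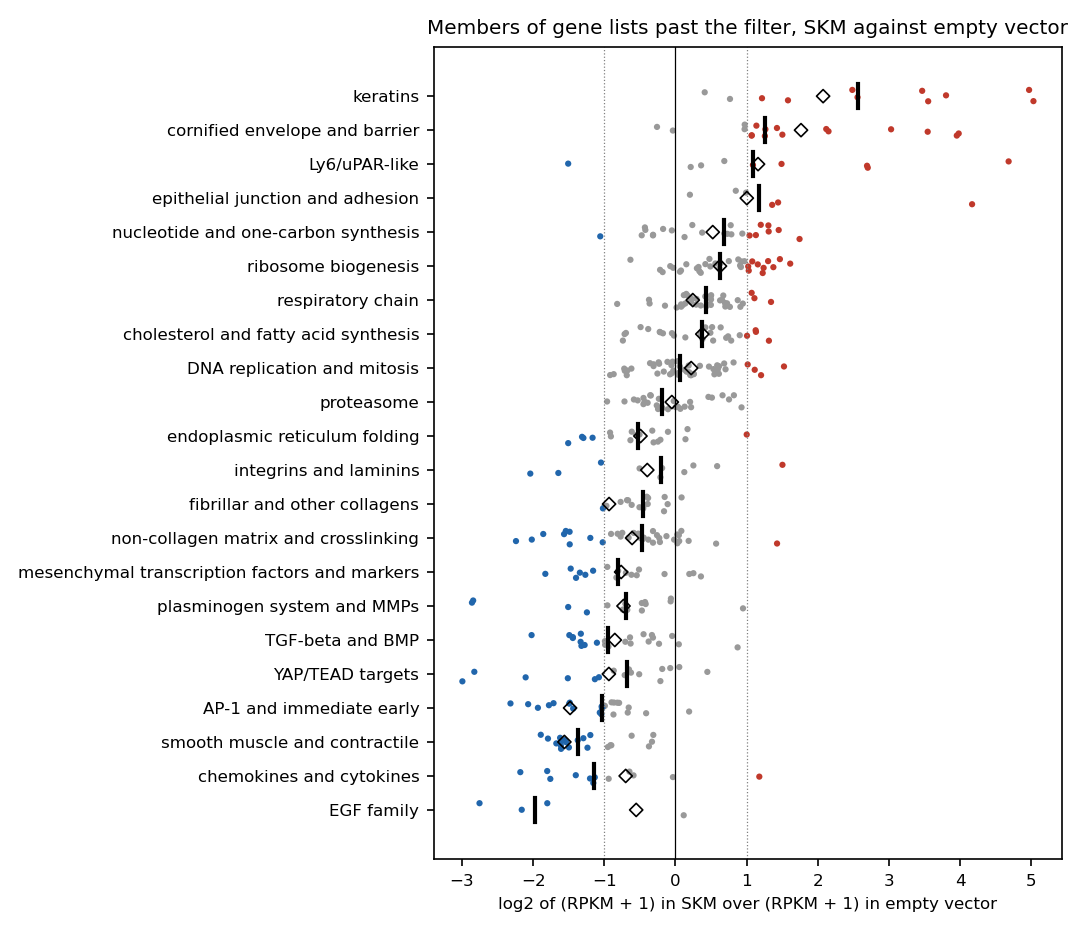
Log2 ratio of RPKM + 1 in SKM over empty vector (horizontal) for the members past the filter of 22 gene lists (rows); red points were called higher, blue lower and grey neither, black bars are list medians, and open diamonds are medians on exon length with the GC trend removed. Keratins (median 2.56) and barrier genes (1.26) lie right of the dotted line at 1, and contractile (-1.37), immediate early (-1.03) and cytokine genes (-1.14) lie left of the line at -1.

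Genes of ribosome and nucleotide synthesis that rose did so by smaller folds. Ribosome biogenesis genes passed the filter in 34 of 35 cases, 10 higher and 0 lower, with a median of 0.62. The number called higher went to 6 of 34 with the GC trend removed and 8 of 35 on the corrected scale, where the median was 0.63. Rrp9, of the U3 particle that cuts ribosomal RNA, was at 14.1 RPKM with SKM, against 3.93 with empty vector, 9.36 with OSKM and 9.01 with G3SKM, 3.58-fold (3.44 to 3.72) higher. Nhp2, which binds box H/ACA guide RNAs, was at 44.96 RPKM with SKM, against 15.6 with empty vector, 38.01 with OSKM and 31.7 with G3SKM, 2.88-fold (2.79 to 2.97) higher. Nolc1, a nucleolar chaperone, was at 23.1 RPKM with SKM, against 8.29 with empty vector, 21.8 with OSKM and 15.9 with G3SKM, 2.79-fold (2.71 to 2.86) higher. Empty vector was the lowest library in each of these. The E-box CACGTG, the site MYC and MAX are known to bind, was found in 8 of 30 promoters of the list and 12.3% of all genes compared, and in 8.09% of all promoters. Genes called higher held it in 13.8% of cases and genes called lower in 9.17%.

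Nucleotide and one-carbon synthesis followed, with 7 of 23 genes past the filter higher and 1 lower (median 0.69, and 0.52 with exon length and GC). This list also holds genes of polyamine synthesis, among them Srm. Srm, spermidine synthase, was at 87.8 RPKM with SKM, against 25.5 with empty vector, 64.8 with OSKM and 48.4 with G3SKM, 3.44-fold (3.35 to 3.53) higher. Cad, which starts pyrimidine synthesis, was at 16.3 RPKM with SKM, against 5.34 with empty vector, 11.6 with OSKM and 9.22 with G3SKM, 3.06-fold (2.99 to 3.12) higher. Shmt1, a serine hydroxymethyltransferase of the cytosol, was at 3.26 RPKM with SKM, against 0.717 with empty vector, 3.49 with OSKM and 3.21 with G3SKM, 4.54-fold (4.30 to 4.80) higher. Rrm1, the large subunit of ribonucleotide reductase, was lower by 2.37-fold (2.30 to 2.44), a call that was lost with the GC trend removed (log2 -0.59) and on the corrected scale (-0.72). Of 24 genes of glycolysis and the pentose phosphate pathway 3 were higher. These were the phosphofructokinase gene Pfkl (3.68-fold (3.52 to 3.84)) and the lactate transporters Slc16a1 (3.398-fold (3.26 to 3.54)) and Slc16a3 (3.35-fold (3.10 to 3.61)). With the GC trend removed only Slc16a1 of these passed the rule (log2 1.78, against 0.99 and 0.70), and on the corrected scale 3 of 28 genes of the list were higher, Pfkl among them (1.21) but not Slc16a3 (0.93). Cholesterol and fatty acid synthesis had 4 of 27 higher, led by Dhcr7, the last enzyme of cholesterol synthesis, at 5.17-fold (4.87 to 5.48). This count fell to 1 of 27 with the GC trend removed and 2 of 30 on the corrected scale. Fasn, fatty acid synthase, was 2.30-fold (2.26 to 2.34) higher, and its call was lost with the GC trend removed, on the corrected scale (log2 0.74 and 0.70), after centring and with trimmed mean scaling. Of 24 genes of amino acid supply 2 rose, the glutamine transporter Slc1a5 (3.29-fold (3.19 to 3.38)) and the tryptophanyl-tRNA synthetase Wars (2.56-fold (2.49 to 2.63), log2 0.90 with the GC trend removed). On the corrected scale 2 of these genes were higher and 4 lower of 25. The respiratory chain had 3 of 38 higher and 0 lower, and the proteasome 0 of 31 in either direction, counts that were the same on the corrected scale (3 of 39 and 0 of 31). The respiratory chain genes called were not all the same, since Atp5d and Uqcrc1 lost their calls on the corrected scale (log2 0.89 and 0.92). The shares called higher in amino acid supply and the respiratory chain were close to the 8.88% of all genes. With the GC trend removed glycolysis had 1 of 24 higher and cholesterol and fatty acid synthesis 1 of 27, both under the 6.01% of all genes. On the corrected scale the shares of these 2 lists were near the 8.27% of all genes.

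Of 49 genes of DNA replication and mitosis past the filter 4 were higher and 0 lower, a share close to that of all genes, and their median was 0.06 (corrected scale: 3 higher and 0 lower of 52, median 0.22). The licensing factor Cdt1 rose 3.23-fold (3.09 to 3.37), Mybl2 3.58-fold (3.43 to 3.74) and the polymerase subunit Pold1 2.61-fold (2.51 to 2.71), while Mki67, a marker of cycling cells chosen after its value was seen, was at 6.53 RPKM with empty vector, against 5.39 with SKM, 9.07 with OSKM and 6.32 with G3SKM. With the GC trend removed the count fell to 2, and Mybl2 (log2 0.92) and Pold1 (0.66) were not called, Pold1 not on the corrected scale either (0.72). Of 22 genes of the p53 response and senescence 3 were higher and 4 lower (corrected scale: 4 higher and 4 lower of 26, median 0.06). Bbc3, which encodes PUMA, rose 3.44-fold (3.24 to 3.64), and Cdkn2a, which encodes p16 and p19ARF, rose 4.72-fold (4.38 to 5.10), from 0.440 to 2.08 RPKM. Both calls were lost with the GC trend removed (log2 0.88 and 0.72) but stood on the corrected scale (1.09 and 1.53), and that of Cdkn2a was also lost after centring and with trimmed mean scaling. Plk2 fell 5.85-fold (5.62 to 6.09) and Gadd45b 4.34-fold (4.03 to 4.68). Cdkn1a, the gene of p21, chosen after its value was seen, was at 23.3 RPKM with empty vector, against 30.5 with SKM, 26.2 with OSKM and 23.2 with G3SKM and was not called.

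Chaperones of the endoplasmic reticulum were lower in part. Of 18 such genes 4 were lower and 1 higher, with a median of -0.53 (corrected scale: 0 higher and 3 lower of 18, median -0.49). Hspa5, the chaperone BiP, was at 162 RPKM with empty vector, against 56.2 with SKM, 104 with OSKM and 90.6 with G3SKM, 2.88-fold (2.83 to 2.92) lower. Hsp90b1 fell 2.59-fold (2.54 to 2.64) and Xbp1, a factor of the unfolded protein response, 2.72-fold (2.58 to 2.88). SKM was the lowest of the 4 libraries for Hspa5, with both other factor libraries between SKM and empty vector. Removal of the GC trend left Hspa5 and Xbp1 past the rule (log2 -1.18 and -1.46) and took Hsp90b1 under it (-0.74). Of 26 redox genes 1 was higher and 4 lower (corrected scale: 1 higher and 3 lower of 28, median -0.03). Sod2, the superoxide dismutase of mitochondria, was at 10.03 RPKM with SKM, against 4.11 with empty vector, 12.8 with OSKM and 8.64 with G3SKM, 2.44-fold (2.39 to 2.49) higher, a call that was lost after centring and with trimmed mean scaling. Gpx8, a peroxidase of the endoplasmic reticulum, was at 25.5 RPKM with empty vector, against 5.31 with SKM, 10.1 with OSKM and 11.8 with G3SKM, 4.81-fold (4.51 to 5.13) lower, and Srxn1, sulfiredoxin, fell 3.54-fold (3.34 to 3.76). Prdx1, a peroxiredoxin, was at 17.6 RPKM with empty vector, against 7.19 with SKM, 18.0 with OSKM and 21.7 with G3SKM, so SKM stood apart from the 3 other libraries, and its call was lost with the GC trend removed (log2 -0.71).

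No direction is given for the lists of chromatin genes. Of 7 genes of DNA methylation and its removal past the filter 1 was called, Gadd45g, 3.39-fold (3.24 to 3.55) lower. Of 17 Polycomb and histone demethylase genes 1 was called, Cbx2, 3.73-fold (3.42 to 4.06) higher. The call of Cbx2 was lost with the GC trend removed and on the corrected scale (log2 0.80 and 0.99). Of all genes compared 8.88% were higher and 5.98% lower. On the corrected scale DNA methylation had 2 higher and 1 lower of 12, and Polycomb and demethylase genes 1 higher and 0 lower of 30. The shares of all genes there were 8.27% higher and 5.64% lower. Complement and antigen presentation gave no call among 8 genes past the filter (corrected scale: 1 higher and 0 lower of 11). The type I interferon response gave 1 of 9, Bst2, 2.12-fold (2.03 to 2.21) higher. Bst2 too was not called with the GC trend removed or on the corrected scale (log2 0.70 and 0.71), nor after centring or trimmed mean scaling, and no gene of the list was then called higher after GC removal. Among KLF genes other than Klf4, Klf16 rose 3.02-fold (2.88 to 3.17), and Klf6 and Klf10 fell, Klf10 by 2.33-fold (2.23 to 2.44). The calls of Klf16 (log2 0.84 and 0.93) and Klf10 (-0.79 and -0.95) were lost with the GC trend removed and on the corrected scale.

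By kind of gene, 601 of 7015 protein-coding genes were higher (8.57%) and 307 lower (4.38%), against 8.88% and 5.98% of all genes compared. Processed pseudogenes, 1616 compared, had the opposite balance, with 100 higher (6.19%) and 175 lower (10.8%). Of 173 small nucleolar RNA genes 46 were higher (26.6%) and 12 lower (6.94%). Other small RNA genes had large shares in both directions. MicroRNA genes, 67 compared, were 25.4% higher and 16.4% lower, and small nuclear RNA genes, 17 compared, 23.5% and 17.6%. Genes this short can pass the filter on few reads. Mir1901, without reads in empty vector, was at 5.05 RPKM with SKM on 21 recovered reads. The part of counting error in the shares of small RNA genes, small nucleolar RNA genes included, was not tested. Median transcript GC was 45.1% for small nucleolar RNA genes and 49.7% for processed pseudogenes. Strand is not stated for the counting, so antisense genes (265 compared, 25 higher, 12 lower) cannot be told apart from their partners. By chromosome, the share of genes called higher ranged from 3.02% on chromosome 12 to 12.7% on chromosome 15, whose genes compared had a median transcript GC of 49.1% and 53.4%. On chromosome X, where median GC was 48.1%, 5.41% were higher and 9.56% lower. The part of GC in the shares by kind of gene and by chromosome was not tested.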

How the data were processed

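RNA-seq of mouse embryonic fibroblasts gave 1 value per gene for each of 4 groups, and each value stands for 2 replicates. Per the file headers, the authors deposited RPKM for each group and the log2 of the ratio of the RPKM columns; the log2 column was not used, and ratios were recomputed. TopHat 1.3.0 and the build mm9 are named in the submitters' processing notes. The read counter, its annotation, the strand setting and the pooling of replicates are not given in the sources read for this work. Per the labels' protocols, amplified cDNA passed through further PCR, sonication and a DNA library kit, which can alter the measured balance of transcripts.

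GENCODE M21 gave symbols, spans of genes, lengths of exons and transcript GC (symbols for 92.7% of compared genes), a later build than that of the values, so its gene coordinates are not printed. RPKM multiplied by the gene span (introns included) fell within 0.05 of whole multiples of 1 step for 74.7% to 76.7% of the 11600 to 13103 genes checked per group, which gave depths and reads. Genes without reads used a floor of 3 reads per library. Promoters and their coordinates are from RefSeq, build GRCm38.p6, whose table held 5705 of the 10195 genes. OSKM and G3SKM values come from separate deposited tables that share their scale with this one as far as their identical SKM columns show, and comparisons of SKM, OSKM and G3SKM with empty vector share the empty vector library.

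The members and the 51 gene lists and 8 marker lists were chosen with earlier results of these data known. The rule for genes named in the text took the factors delivered, the 12 protein-coding genes that rose most and the 12 that fell most at 5 RPKM or more on the deposited scale, the same after rescaling to exon length with the GC trend removed (20 bins), and from each list at most 3 genes called higher and 3 called lower. Alternatives were pseudocounts, filters, a rule of 2, centring, trimmed mean scaling, exon length, GC removal, protein-coding genes alone and a minimum of 100 reads. Values of a few such genes are not reported here. The procedure was tested on simulated data. Scripts ran on Python 3.11.15 with pandas 2.3.3, numpy 2.4.6, SciPy 1.17.1, Biopython 1.88 and, for plots, matplotlib 3.10.9.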

Additional observations from a re-analysis of the deposited data

How the results depend on the processing

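No paired analysis was possible because each group has a single value, and for the same reason no replicate could be left out. The count of genes called higher, 905, became 1646 with a pseudocount of 0.1 RPKM, 248 with one of 5 RPKM, 583 with a filter at 5 RPKM, 100 with a rule of 2, 571 with trimmed mean scaling, 1757 on exon length, 568 with the GC trend removed and 601 among protein-coding genes alone. The count called lower, 610, became 1103 and 220 with those pseudocounts, 48 with a rule of 2, 1056 on exon length, 402 with the GC trend removed and 307 among protein-coding genes. A stricter rule, a filter and protein-coding genes alone test fewer genes or ask for more by construction, and for the other settings the cause was not tested. Other settings stayed within 1.5 times. Spearman's rho with GC was 0.409 to 0.504. Of 141 named genes that were called, 62 were no longer called with a pseudocount of 5, 32 with the GC trend removed, 24 with exon length as well, 16 with trimmed mean scaling and 13 after centring, and 0 reversed. Medians of the C/EBP, prostaglandin, IGF, WNT, Notch, Hedgehog, axon guidance, interferon, redox, proteasome, replication, p53, BEX, KLF, MYC network, imprinted and adipocyte lists changed sign under at least 1 setting.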
